A study of Mus musculus with 8 samples.

Results

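Acetylation of histone H3 at lysine 27 (H3K27ac) was examined at the mouse genes Sulf2 and Sulf1, which encode the extracellular heparan 6-O-endosulfatases. Members were the H3K27ac peaks overlapping a 200 kb window set for Sulf2 on chromosome 2 (165.85 to 166.05 Mb, mm9) and a 300 kb window set for Sulf1 on chromosome 1 (12.60 to 12.90 Mb). The Sulf2 window held 7 of the 22731 peaks of the study. The Sulf1 window held 0, so the values below are those of Sulf2. The locus was chosen by the measured fold change between knockout and control libraries, since a pair of Sulf2 peaks ranked among the strongest losses of the table. Every difference between groups is therefore given as a description, without a test of the locus.

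The study compared colon cancer organoids labelled Gata6KO_AKP with organoids labelled AKP, the background that both groups carry. H3K27ac was profiled by CUT&RUN, in which an antibody guides a nuclease to cut out the DNA around a chromatin mark, in 3 Gata6 knockout and 3 control libraries, each from 500000 cells dissociated from organoids. Further control libraries, 1 for H3K4me3 and 1 for IgG, were not analysed here, and no background was subtracted. The labels give C57Bl6 recipient mice, but neither how Gata6 was inactivated nor whether the replicates were separate cultures or clones, so the spread between libraries may be technical. Reads in peaks numbered 5495414 to 6196455 in knockout and 5141856 to 7026388 in control libraries. The level at Gata6 and the identity of the cells were not checked here.

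Heparan sulfate is a sulfated sugar chain carried by cell surface and matrix proteoglycans, where it binds growth factors, among them Wnt, FGF and BMP ligands. SULF1 and SULF2 are secreted enzymes that remove 6-O-sulfate groups from finished chains outside the cell and so change which ligands the chains hold. GATA6, a zinc finger protein of endoderm-derived tissues such as the gut lining, regulates transcription from sites with a GATA core. H3K27ac marks active promoters and enhancers.

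The promoters of Sulf2 are shown because the factor that was removed binds GATA sites. RefSeq's promoter table for GRCm38.p6 (300 bases around each gene start) holds 2 entries for Sulf2, on the minus strand of chromosome 2, and 0 for Sulf1. Capitals mark GATA, or TATC where the core lies on the other strand.
Sulf2, chr2:166155634-166155933: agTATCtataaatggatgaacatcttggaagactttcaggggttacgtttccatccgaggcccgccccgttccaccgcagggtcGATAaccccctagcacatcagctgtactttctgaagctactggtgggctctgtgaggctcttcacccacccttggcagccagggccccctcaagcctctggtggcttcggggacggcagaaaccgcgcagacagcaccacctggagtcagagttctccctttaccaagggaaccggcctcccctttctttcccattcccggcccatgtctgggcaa
Sulf2, chr2:166155236-166155535: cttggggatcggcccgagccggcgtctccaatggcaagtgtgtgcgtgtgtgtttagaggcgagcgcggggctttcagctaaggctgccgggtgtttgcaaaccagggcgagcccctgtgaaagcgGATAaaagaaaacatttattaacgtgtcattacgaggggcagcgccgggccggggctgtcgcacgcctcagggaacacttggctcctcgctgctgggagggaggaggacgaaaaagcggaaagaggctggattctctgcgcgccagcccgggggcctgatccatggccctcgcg
The first sequence held 2 GATA cores and the second held 1, counted on either strand, and 57.9% of the 32851 promoters of 300 bases in the table held at least 1. Of 4 extended motifs searched on both strands, AGATAA had 0 matches here, TGATAA had 0 matches, AGATAG had 0 matches and TGATAG had 0 matches, while 29.8% of all promoters held at least 1 of them. These promoters held 12 and 26 CpG dinucleotides, against a median of 7. They come from a later assembly than the peaks. Positions were not converted between the 2 assemblies here, so as printed they cannot be laid over one another. Which peak, if any, covers a Sulf2 promoter was not determined. In the gene order of GRCm38.p6 the nearest protein-coding neighbour of Sulf2 on the side of lower coordinates is Ncoa3, a nuclear receptor coactivator. Peaks at the low end of the window may belong to either gene.

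The Sulf2 peaks are grouped here by their call into 2 blocks, which also follow one another along the chromosome. Peaks 1 to 3 lay from 165869881 to 165890699 and peaks 4 to 7 from 165910605 to 165950497. The gap between the blocks was 19.9 kb, and a gap of 16.5 kb lay within the second block, between peaks 5 and 6, so spacing alone does not set the blocks apart. Peaks 4 to 7 all fell in the knockout, by 2.14-fold to 2.88-fold, and in each of them the 3 knockout libraries lay below the 3 control libraries. Peaks 1 to 3 did not pass the test, and in each of them the groups overlapped. The call was edgeR's quasi-likelihood test over all peaks with Benjamini-Hochberg adjusted p under 0.05, and it marked 10.2% of all peaks as lower and 11.6% as higher. The groups lay apart with the knockout lower at 16.2% of all peaks. These shares are printed beside the counts of 4 of 7 and are not read as support, since this contrast chose the locus. Levels are given in CPM, which sets the reads of a peak against the total of its library in all peaks, with TMM scaling for differences in composition. The plot of levels by library shows the blocks side by side.

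**Figure D1:**
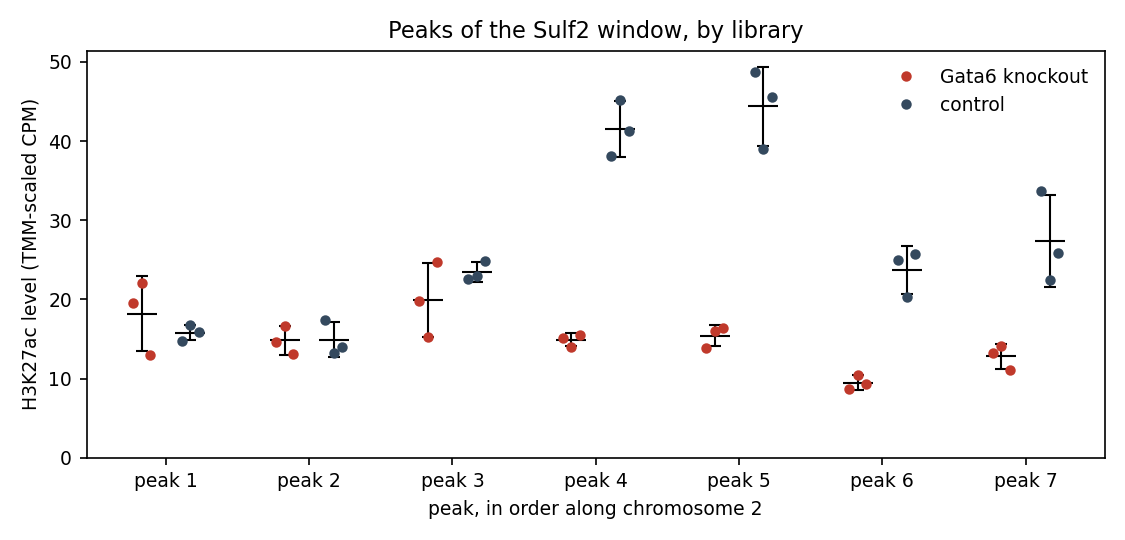
Level of the 7 Sulf2 window peaks in CPM (TMM-scaled; y axis) along chromosome 2 (x axis), with 1 point per library and bars for the mean and SD of 3 libraries. Knockout and control points overlap at peaks 1 to 3 and are apart at peaks 4 to 7, where knockout means are 9.51 to 15.4 CPM and control means 23.7 to 44.4 CPM.

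Peak 5, the widest peak of the window at 3994 bp and the one with the highest mean level over the 6 libraries, lay from 165915453 to 165919446. In knockout libraries alone, peaks 1 and 3 had higher means. Its level was 13.9, 16.0 and 16.4 CPM in knockout replicates 1 to 3, against 48.7, 39.0 and 45.5 CPM in control replicates 1 to 3. The highest knockout library stood far below the lowest control library. Its log2 fold change was -1.53 ± 0.17 (SE, 3 libraries per group), which ranked 9 from the lowest among 22731 peaks. Peak 4, from 165910605 to 165913195 and only 2.26 kb away, held 15.1, 14.0 and 15.6 CPM in knockout replicates 1 to 3, against 38.1, 45.2 and 41.2 CPM in control replicates. These libraries also kept to separate ranges, with a log2 fold change of -1.48 ± 0.17 (SE), which ranked 13 from the lowest. As raw reads, peaks 4 and 5 held 77 to 102 in knockout and 200 to 318 in control libraries.

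Farther along, the levels were lower in both groups but the loss was of like direction. Peak 6, from 165935989 to 165939507, held 8.71, 10.5 and 9.30 CPM in knockout replicates 1 to 3, against 25.0, 20.3 and 25.8 CPM in control replicates. Its log2 fold change was -1.32 ± 0.24 (SE), with every knockout library at 58 reads or fewer. Peak 7, from 165946810 to 165950497, held 13.2, 14.1 and 11.1 CPM in knockout replicates, against 33.7, 22.4 and 25.9 CPM in control replicates. Control replicate 1 was the highest there and control replicate 2 the lowest, and control replicate 2 still lay above all knockout libraries. The log2 fold change of peak 7 was -1.10 ± 0.20 (SE), the smallest of the 4.

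The low block showed no such difference. Peak 1, from 165869881 to 165871256, averaged 18.2 ± 4.71 CPM in knockout and 15.8 ± 0.985 CPM in control libraries (SD, n = 3 each), with a log2 fold change of 0.20 ± 0.23 (SE). Peak 2, from 165879198 to 165880952, averaged 14.8 ± 1.78 CPM in knockout and 14.9 ± 2.20 CPM in control libraries. Peak 3, from 165888486 to 165890699, averaged 19.9 ± 4.73 CPM in knockout and 23.5 ± 1.24 CPM in control libraries, with a log2 fold change of -0.24 ± 0.19 (SE). At peaks 1 and 3 the knockout libraries spread more widely than the control libraries. With this error, differences of the size seen at peaks 1 and 3 could not be told from none. The median log2 fold change was -1.10 over the 7 peaks, -1.40 over peaks 4 to 7 and -0.01 over peaks 1 to 3, beside -0.01 over all 22731 peaks and 0.00 over the 1828 peaks of chromosome 2.

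Fold changes outside the falling peaks can be followed in the plot of fold change against distance. The last peak outside the window on the low side lay from 165807581 to 165809324, 40.7 kb below the window, and averaged 18.2 ± 4.6 CPM in knockout and 14.1 ± 3.94 CPM in control libraries (SD, n = 3 each). The first peak inside was peak 1. All 6 peaks in the 200 kb below the window lacked a call, among them a 41474 bp wide peak at 579 ± 15.6 CPM in knockout and 558 ± 19.7 CPM in control libraries. Most peaks of the study lacked one, as 10.2% were called lower and 11.6% higher, so this count is a description and sets no edge. Their summed level was 925 ± 21.6 CPM in knockout and 898 ± 21.1 CPM in control libraries, a ratio of 1.03. On the high side the peak set was empty for 525 kb after peak 7. The next peak, from 166475480 to 166478790 and 425 kb above the window, went the other way, with 37.6 ± 6.37 CPM in knockout and 19.4 ± 5.03 CPM in control libraries and a call as higher. The fall thus covered 4 consecutive peaks over 39.9 kb, with peaks that were not called on one side and a stretch without peaks on the other.

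**Figure D2:**
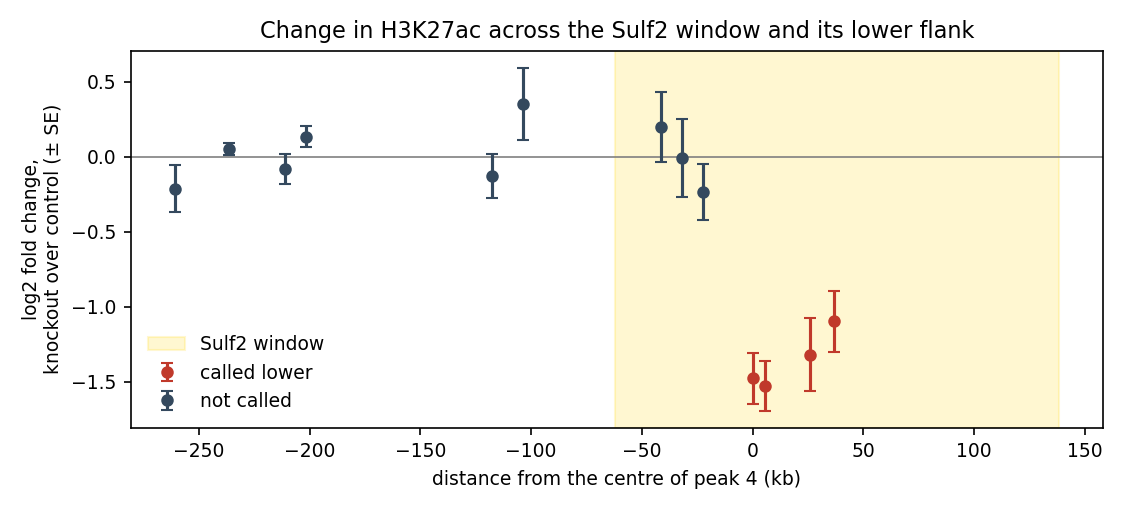
Log2 fold change of knockout over control with its SE (y axis) against distance in kb from the centre of peak 4 (x axis), for the 7 peaks of the Sulf2 window (shaded) and the 6 peaks in the 200 kb below it. The 4 peaks called lower lie between -1.53 and -1.10, and the other 9 lie between -0.24 and 0.35.

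Summed over the window, acetylation was 105, 109 and 103 CPM in knockout replicates 1 to 3, against 200.4, 179.8 and 193 CPM in control replicates 1 to 3. The means were 106 ± 2.82 CPM in knockout and 191 ± 10.5 CPM in control libraries (SD, n = 3 each), a 1.81-fold loss over 19137 bp of peaks. Since the blocks were drawn by the call, their sums are a description. Nearly all of the difference lay in peaks 4 to 7, whose sum was 52.6 ± 1.82 CPM in knockout and 137 ± 9.49 CPM in control libraries. Peaks 1 to 3 summed to 53.0 ± 1.84 CPM in knockout and 54.2 ± 1.07 CPM in control libraries, a ratio of 0.977. Peaks 4 to 7 therefore held 49.8% ± 1.11 of the window's reads in knockout and 71.6% ± 1.06 in control libraries. This share is formed within each library and does not depend on how libraries were scaled to one another. Fewer organoid cells with acetylation at the locus and less acetylation per cell cannot be told apart in these bulk libraries.

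**Figure D3:**
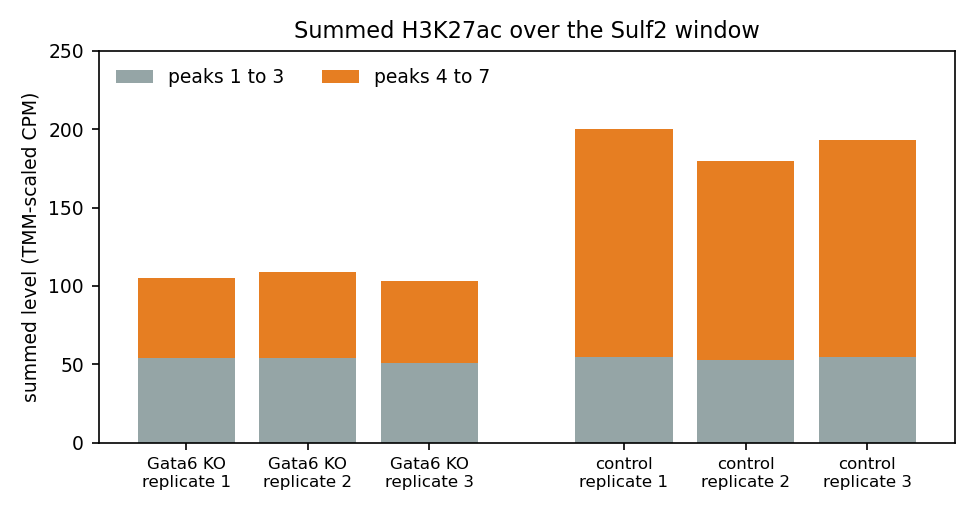
Summed H3K27ac level of the Sulf2 window (y axis, TMM-scaled CPM) in each of the 6 libraries (x axis), split into peaks 1 to 3 and peaks 4 to 7. The grey parts are 50.8 to 54.1 CPM in knockout and 53.0 to 54.9 CPM in control libraries, and the orange parts 51.0 to 54.6 CPM in knockout and 127 to 146 CPM in control libraries.

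The proportions of the 4 falling peaks to one another overlapped between the groups. Of their sum, peak 4 held 28.3% ± 2.39 in knockout and 30.5% ± 4.78 in control libraries (SD, n = 3 each). Peak 5 held 29.3% ± 1.99 in knockout and 32.4% ± 1.44 in control libraries, and peak 6 held 18% ± 1.12 in knockout and 17.3% ± 1.32 in control libraries. Peak 7 held 24.3% ± 2.75 in knockout and 19.9% ± 2.93 in control libraries. At each of the 4, the ranges of the knockout and control libraries overlapped in this share. These 4 were grouped because each was called lower, so shares of like size follow in part from that choice and are a description. Across the 6 libraries, log2 level correlated with the log2 window sum at r = 0.968 to 0.994 for peaks 4 to 7 and at -0.31 to 0.50 for peaks 1 to 3. All 7 peaks are part of that sum and share its libraries. Peaks 4 to 7 were grouped by their call and carry nearly all of its group difference, so these values are a description.

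Level per length showed how far the peaks sank within the peak set. In control libraries peak 4 was densely acetylated, with 16.0 CPM per kb, at percentile 90.9 of all peaks. Peak 5 had 11.1 CPM per kb, close to the median of 10.7 CPM per kb over all peaks, while peaks 6 and 7 had 6.73 and 7.42 CPM per kb, at percentiles 7.23 and 11.3. In knockout libraries the same 4 peaks had 5.75, 3.86, 2.70 and 3.47 CPM per kb in order along the chromosome. Peak 6 then had the lowest level per kb of all 22731 peaks, and peaks 7, 5 and 4 ranked 7, 10 and 261 from the lowest. Peaks 1 to 3 had 13.2, 8.44 and 9.0 CPM per kb in knockout and 11.5, 8.48 and 10.6 CPM per kb in control libraries. A peak set drawn over both groups can hold regions that are peaks in only 1 of them, and without the IgG library it was not tested whether the knockout values differ from background.

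**Figure D4:**
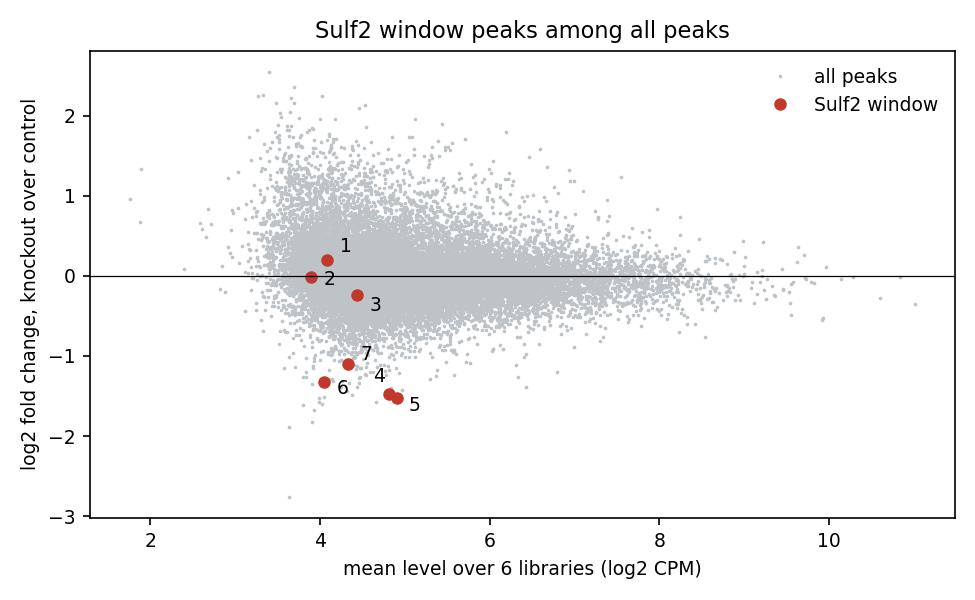
Log2 fold change of knockout over control (y axis) against mean level over the 6 libraries in log2 CPM (x axis), with all 22731 peaks in grey and the 7 Sulf2 window peaks in red, numbered in order along the chromosome. Peaks 4 to 7 lie between -1.53 and -1.10, at the lower edge of the cloud, and peaks 1 to 3 lie near 0.

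Losses of this depth were rare. A called fall of at least 2-fold was seen at 92 peaks, 0.405% of all, and 4 of them were peaks 4 to 7. Of the stretches of consecutive peaks that all fell at least 2-fold, 3 held 4 peaks, and none held more. Besides Sulf2 these lay on chromosome 3 (86934693 to 86966201), with a summed level of 82.1 ± 3.78 CPM in knockout and 204 ± 21.2 CPM in control libraries, and on chromosome 8 (97623121 to 97669111), with 107 ± 4.37 CPM in knockout and 240.0 ± 15.8 CPM in control libraries (SD, n = 3 each). Their summed losses were 2.49-fold and 2.25-fold, beside 2.60-fold at Sulf2. This limit of 2-fold was chosen with the values known. The locus itself was chosen by its fold change, so its place among these losses is a description.

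The pattern of the Sulf2 window over the 6 libraries was also matched by single peaks elsewhere. Among 11364 peaks outside the window at or above the median level of 27.7 CPM, the most alike (Pearson's r of log2 CPM with the log2 window sum over 6 libraries) lay on chromosome 3 from 86953007 to 86958710, with r = 0.9996. It belongs to the stretch on chromosome 3 named above and held 48.1, 49.3 and 45.5 CPM in knockout replicates 1 to 3, against 136, 112 and 125 CPM in control replicates. Chromosome 12 carried 2 of the next 4 (starting at 103814062 and ending at 103836064, and starting at 103570509 and ending at 103584686). The other two were found on chromosome 5 (37204045 to 37212448) and chromosome 17 (26556478 to 26563018). These 4 had r = 0.997 to 0.998 and losses of 1.37-fold to 1.69-fold. A high r follows mainly from the separation of the groups and says nothing of the size of the change.

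At Sulf1 no H3K27ac peak was found in the window, and widening it by 50 kb on each side still gave 0. The window lay within a stretch of 556 kb without a peak, while neighbouring peaks of the set were a median of 9.15 kb apart, and 4.11% of all 22706 gaps were as wide. Such emptiness is common along the genome, as 56.1% of 8780 consecutive tiles of 300 kb held no peak. The table counts reads only within peaks, so the level at Sulf1 was not measured, and neither a fold change nor an upper limit can be given. The plot of distances between peaks marks this stretch and that above Sulf2.

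**Figure D5:**
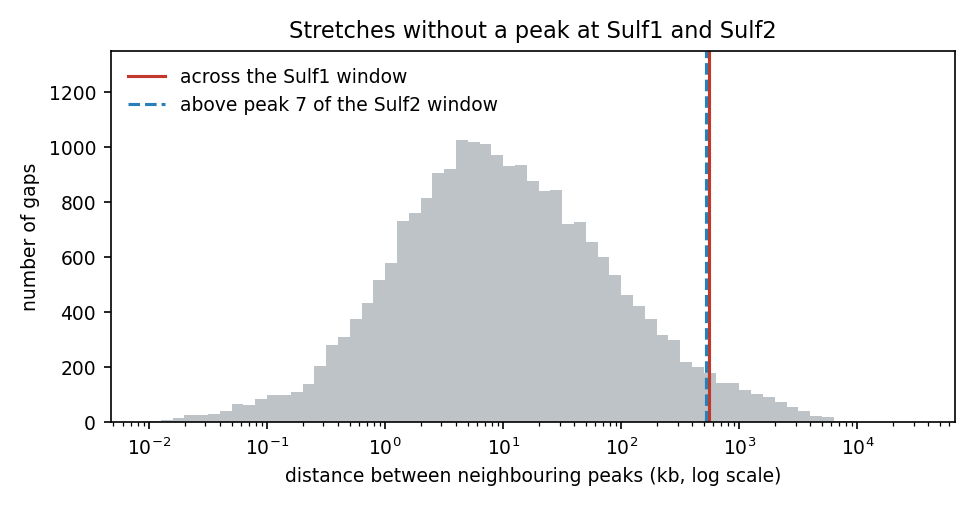
Number of gaps between neighbouring peaks (y axis) by their length in kb (x axis, log scale), over 22706 gaps, of which 5 of length 0 are not drawn. The gap across the Sulf1 window (556 kb, solid line) and the gap above peak 7 of the Sulf2 window (525 kb, dashed line) lie in the upper tail, beyond the median of 9.15 kb.

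Of the 3 peaks within 200 kb of the Sulf1 window, 2 were called higher in the knockout, a call made at 11.6% of all peaks, and the nearest was not called. The closest on the low side, 174 kb below the window from 12423874 to 12425803, held 28.6, 21.0 and 25.7 CPM in knockout replicates 1 to 3, against 13.9, 11.7 and 15.5 CPM in control replicates. It was called higher, with a log2 fold change of 0.87 ± 0.21 (SE), and all knockout libraries lay above all control libraries, as at 17.5% of all peaks. On the high side, the peak from 12981586 to 12983051, 81.6 kb above the window, was not called and averaged 19.2 ± 4.28 CPM in knockout and 13.6 ± 1.32 CPM in control libraries (SD, n = 3 each). The peak after it, from 13000649 to 13002206, was called higher, with 17.4, 21.4 and 19.2 CPM in knockout replicates and 8.0, 6.23 and 7.16 CPM in control replicates, a 2.70-fold gain. This gain rests on few reads, with 46, 32 and 50 in control replicates 1 to 3. Its mean level was at percentile 3.5 of all peaks. In the gene order of GRCm38.p6 the coding neighbour of Sulf1 on the high side is Slco5a1, an organic anion transporter family gene. To which gene these peaks belong was not determined.

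Genes that build heparan sulfate or carry it, such as the Ext and Ndst families, syndecans and glypicans, were not analysed here, because the peak table names no genes and no mm9 annotation was used.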

How the data were processed

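The authors deposited raw read counts over 1 peak set shared by 6 H3K27ac CUT&RUN libraries. Per the submitters' processing notes the build was mm9 and the tools were SEACR, bedtools, Bowtie, SAMtools and Picard, with no version or role; how peaks were merged and reads counted is not given in the sources used here. Between 82.8% and 88.9% of counts per library were even, as if both mates of a pair were counted.

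Counts were analysed in R 4.3.3 with edgeR 4.0.16 (TMM, quasi-likelihood test of group without covariates, two-sided, Benjamini-Hochberg over 22731 peaks; its expression filter removed 0 peaks; a prior count of 0.125 in fold changes). SEs were derived from F. Libraries of a group varied by 11.4% (coefficient of variation from the common dispersion). The code was tested on simulated data. Alternatives were DESeq2 1.42.0, other scalings (trended offsets used limma 3.58.1, loess span 0.3), filters and thresholds, halved counts, a replicate block, each library left out and other windows.

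The members, lists, tests and alternatives were chosen with earlier results of these data known. Called peaks, the peak with the highest mean level and the widest peak of the window are named with their library values. The 3 uncalled peaks are given by means. The planned lists of pathway genes and proteins were not run. RefSeq promoters (GRCm38.p6) were searched for motifs. Counting error sets a floor on precision at 50 to 318 reads per member and library. If both mates of a pair were counted, the independent fragments are fewer than these reads.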

Additional observations from a re-analysis of the deposited data

How the results depend on the processing

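The locus was chosen by this contrast, so calls that held under the alternatives are a description. The runs without the expression filter and at adjusted p under 0.01 repeat the main fold changes. The filter removed 0 peaks, and a threshold alters no fit. Counting these, peaks 4 to 7 kept their direction and call in all 66 single-peak values of the alternatives that tested them. Their log2 fold changes were -1.61 to -0.92. Of the 48 such values for peaks 1 to 3, none was called, and peak 2, near 0, turned to 0.00118 with total counts and ranged from -0.10 to 0.12 with each library left out, above 0 without knockout replicate 3 or control replicate 1; with trended offsets it was -0.20, and peak 1 was 0.10. Peak 1 was 0.04 without knockout replicate 2 and 0.40 without knockout replicate 3, and peak 3 was -0.08 and -0.42 without the same libraries, so these values rest on single libraries. Requiring a mean level at or above the median removed peaks 1 to 3, 6 and 7 before the fit. This left peaks 4 and 5, the 2 window peaks then called lower, with 1462 lower and 1676 higher peaks over all. At an adjusted p under 0.01, 1478 peaks were lower over all. The log2 ratio of the window sum, -0.86, was -0.90 to -0.82 with each library left out and -0.90 to -0.85 over the scalings. It was -0.73 with the window widened by 50 kb on each side, which adds the peak below it, and -0.48 without peaks 4 and 5. With scaling factors from peaks off chromosome 5, 2587 peaks were lower and 2479 higher, in place of 2320 and 2640.

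No label pairs libraries by their number. Deviations from group means had r of 0.00595 to 0.0662 between libraries of the same number and of -0.0487 to 0.0403 otherwise, and 1 of 3 knockout libraries correlated best with its own number. With the replicate block, 4 window peaks were lower, and 2409 lower and 2704 higher over all. At 50 to 58 knockout reads, peak 6 has the widest SE of peaks 4 to 7.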
